A study of Mus musculus with 10 samples.

Results

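NF-kB signalling was followed in colon intestinal epithelial cells (IECs) of WT and RhoB-/- mice through 10 genes of the pathway and its feedback, namely Nfkb1, Nfkb2, Rela, Relb, Nfkbia, Nfkbiz, Bcl3, Tnfaip3, Birc3 and Tnfaip2. They were picked by name from a table of 55487 genes. Of these 10 genes, 9 had a mean of at least 1 TPM (transcript level relative to the rest of its library) over all libraries and were tested among 12870 genes that reached this level, and Tnfaip2 lay below it. RNA of IECs was sequenced from 5 WT and 5 RhoB-/- mice, with 1 library per mouse. RhoB-/- mice are described as homozygous knockouts of Rhob, which encodes a small GTPase, and no limit of the knockout to the epithelium was described. Both genotypes had a C57BL/6J background, and the age given for the mice of the study was 6 to 8 weeks unless stated otherwise. The purchased WT mice were male, and no sex was given for the sequenced RhoB-/- mice in the sources used here. RhoB-/- mice and purchased WT mice came from different suppliers, and whether the sequenced WT mice were purchased animals or littermates was not stated, so an effect of the source of the animals was not tested. The colon was kept in EDTA and DTT on ice and then moved to warm EDTA alone, before the cells were shaken off. No sort was described. TPM keeps no depth, so the depth and the counting error behind each value are unknown.

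The targeted gene was read first. Rhob was at 171, 303, 365, 333 and 389 TPM in WT replicates 1 to 5, and at 0.09, 0.10, 0.35, 0.57 and 111 TPM in RhoB-/- replicates 1 to 5. The library labelled RhoB-/- replicate 5 thus held Rhob RNA at a level below all WT libraries and far above the other RhoB-/- libraries. The genotype and the purity of this library are in doubt and were not tested, and it was kept under its label. Rhob had a log2 fold change of -6.61 ± 1.08 (SE, limma adjusted p = 0.00172), and -7.90 without that library. All fold changes here are RhoB-/- over WT on the scale of log2(TPM + 1), where changes of genes near 0 TPM appear smaller than they are. Counts for the members, for the 6 other pathway lists together and for all genes are also given without this library.

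NF-kB factors are dimers of Rel family proteins that IkB proteins hold inactive in the cytoplasm. Signals from TNF, interleukin-1 or microbial products activate the IkB kinase complex, IkB is degraded, and the freed dimers enter the nucleus and switch on genes of inflammation and survival. Among these genes are inhibitors of the pathway itself, such as Nfkbia and Tnfaip3, which close a negative feedback loop, and in the gut epithelium the pathway links the sensing of bacteria to barrier defence.

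The promoters of the members were searched for the kappaB consensus motif, the 10-base binding motif of NF-kB dimers, on both strands. RefSeq promoter windows of build GRCm38.p6, from 250 bases before to 50 bases after the transcription start, were found for 7 of the 10 members, and Nfkb1, Relb and Nfkbiz are named only. At least 1 match was present in the windows of 5 of these 7 genes (71.4%), namely Nfkb2, Nfkbia, Bcl3, Tnfaip3 and Tnfaip2, beside 2581 of 27025 genes (9.55%) over all windows of the same length. No match was found in the windows of Rela and Birc3. Where the same bases matched on both strands, they were taken as 1 site. A match describes the letters of the window and not a bound site. Since the members were picked as genes of this pathway, the share among them is no independent result. A part of the motif in their levels was not tested.
The stretches from 130 bases before to 20 bases after the start are given for 4 members with a match, 5′ to 3′ on the strand of the gene, since these genes include both feedback inhibitors. Capitals mark the bases covered by a match. They lie at chr12:55492628-55492777 (minus strand) for Nfkbia, chr10:19015391-19015540 (minus strand) for Tnfaip3, chr7:19822736-19822885 (minus strand) for Bcl3 and chr19:46304607-46304756 (plus strand) for Nfkb2.
Nfkbia: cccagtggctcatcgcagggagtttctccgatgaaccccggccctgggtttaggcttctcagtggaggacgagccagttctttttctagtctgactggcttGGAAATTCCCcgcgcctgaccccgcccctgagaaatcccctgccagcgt
Tnfaip3: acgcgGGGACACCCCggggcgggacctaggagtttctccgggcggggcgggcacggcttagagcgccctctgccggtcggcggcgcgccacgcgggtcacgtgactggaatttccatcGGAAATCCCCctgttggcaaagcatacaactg
Bcl3: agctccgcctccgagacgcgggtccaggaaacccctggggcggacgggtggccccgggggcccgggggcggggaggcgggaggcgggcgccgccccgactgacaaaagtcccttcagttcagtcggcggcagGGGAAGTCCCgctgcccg
Nfkb2: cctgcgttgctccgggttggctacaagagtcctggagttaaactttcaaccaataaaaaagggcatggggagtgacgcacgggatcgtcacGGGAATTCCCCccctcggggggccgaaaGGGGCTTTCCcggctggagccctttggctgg
The match nearest to the start began at base -29 in Nfkbia and at base -12 in Tnfaip3, which had another at base -125. In Bcl3 the match began at base 3, inside the transcribed sequence, and in Nfkb2 matches began at bases -39, -38 and -11.

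In WT libraries the level per transcript length was highest for Nfkbia, at 197 ± 119 TPM (SD, n = 5), and the lowest WT value of Nfkbia, 79.6 TPM, lay above every WT value of the other 9 genes. Nfkbiz (41.0 ± 18.5), Tnfaip3 (39.9 ± 23.1), Bcl3 (35.1 ± 6.995), Nfkb1 (34.4 ± 2.93), Birc3 (28.2 ± 5.42) and Relb (27.6 ± 3.19) followed, in mean TPM with SD over 5 WT libraries. Rela (22.5 ± 4.77) and Nfkb2 (17.7 ± 2.86) were lower, and Tnfaip2 was at 0.266 ± 0.0808 TPM. Each neighbouring pair in this order overlapped in its WT values, except Nfkbia with Nfkbiz and Nfkb2 with Tnfaip2.

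None of the 9 tested members passed the limma test at an adjusted p below 0.05. The count was 0 higher and 0 lower in RhoB-/- IECs, beside 7.73% of all 12870 tested genes called higher and 13.5% called lower. At an unadjusted p below 0.05 the count was 1, Bcl3, which was higher, beside 11.9% of all tested genes higher and 24.9% lower by that rule. limma without the intensity trend also called 0, and so did the fit without RhoB-/- replicate 5. The values of WT and RhoB-/- libraries overlapped for all 10 members, while 14.5% of all tested genes had no overlap. The median log2 fold change was 0.01 over the 9 members and -0.13 over all tested genes, and differences relative to that median are given with each member.

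**Figure D1:**
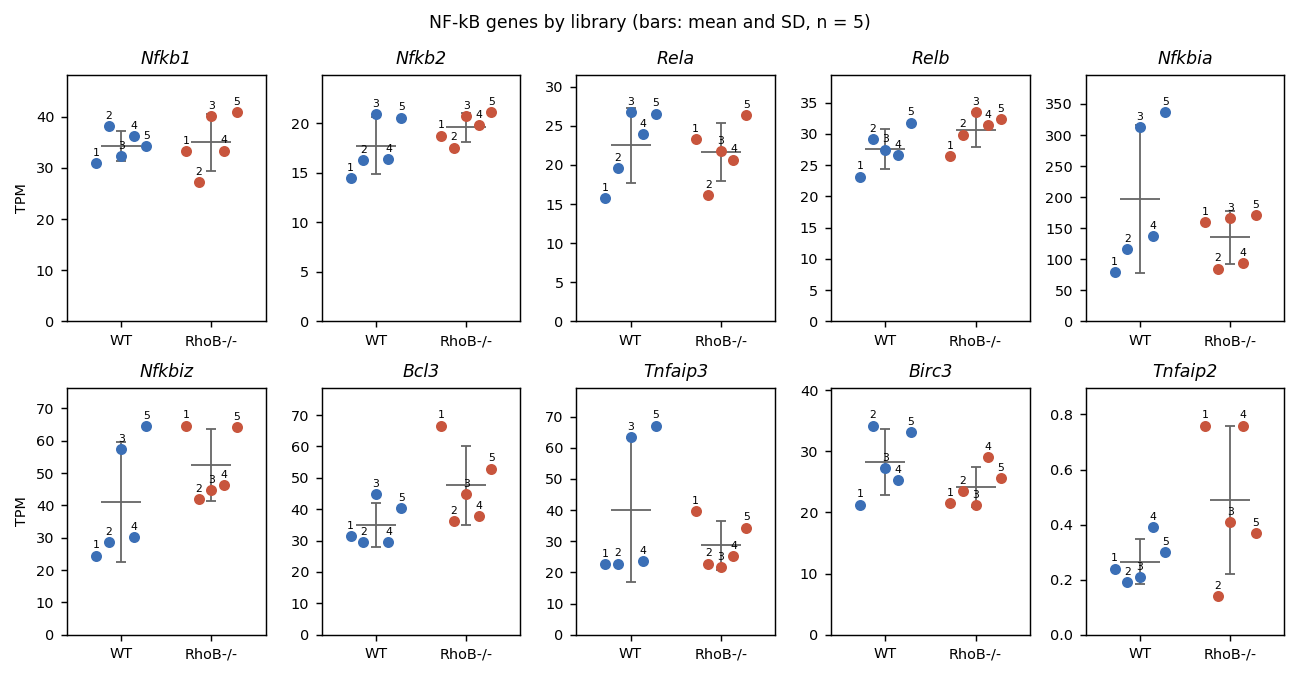
TPM (y axis, linear from 0) of the 10 NF-kB genes in each WT and RhoB-/- library, with points numbered by replicate and bars for the mean and SD of 5 libraries. Nfkbia and Tnfaip3 were high in WT replicates 3 and 5, at 313 and 337 TPM and at 63.3 and 67.1 TPM, and the groups overlap in each panel.

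Among the DNA-binding subunits, Nfkb1 (ENSMUSG00000028163, chr3:135584655-135691547) encodes p105, the precursor of p50. It was at 30.9, 38.2, 32.3, 36.2 and 34.2 TPM in WT replicates 1 to 5 and at 33.3, 27.2, 40.1, 33.4 and 40.9 TPM in RhoB-/- replicates 1 to 5. The lowest and the highest values both fell in RhoB-/- libraries, on either side of the WT range. Its log2 fold change was 0.01 ± 0.12 (SE, limma adjusted p = 0.944), or 0.14 relative to the median of tested genes, with a 95% confidence interval of -0.25 to 0.28.

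Nfkb2 (ENSMUSG00000025225, chr19:46304320-46312385) encodes p100, the precursor of p52 in the noncanonical branch. Its TPM was 14.5, 16.3, 20.9, 16.4 and 20.6 in WT replicates 1 to 5 and 18.7, 17.5, 20.7, 19.8 and 21.1 in RhoB-/- replicates 1 to 5. WT replicates 3 and 5 lay within the RhoB-/- range and the other WT libraries lay below it. Nfkb2 had a log2 fold change of 0.15 ± 0.12 (SE, limma adjusted p = 0.384), or 0.27 relative to the median. Over the alternatives it ranged from 0.0747, without mitochondrial genes, to 0.299, without WT replicates 3 and 5.

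Relb (ENSMUSG00000002983, chr7:19606217-19629438), the partner of p52, had 23.2, 29.2, 27.5, 26.5 and 31.8 TPM in WT replicates 1 to 5 and 26.4, 29.9, 33.5, 31.4 and 32.3 TPM in RhoB-/- replicates 1 to 5. Its lowest value was in WT replicate 1 and its highest in RhoB-/- replicate 3, with the remaining values interleaved. For Relb the log2 fold change was 0.15 ± 0.11 (SE, limma adjusted p = 0.333), or 0.28 relative to the median. With each library centred on the median deviation of its tested genes it was 0.26 and passed (limma adjusted p = 0.0456, range over the alternatives 0.0456 to 0.558).

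Rela (ENSMUSG00000024927, chr19:5637483-5648130) encodes p65, which carries the transactivation domain of the canonical dimer. It was at 15.7, 19.6, 26.7, 24.0 and 26.6 TPM in WT replicates 1 to 5 and at 23.3, 16.2, 21.8, 20.7 and 26.4 TPM in RhoB-/- replicates 1 to 5. Low values occurred in both groups, in WT replicate 1 and RhoB-/- replicate 2, and the RhoB-/- range lay inside the WT range. Rela had a log2 fold change of -0.04 ± 0.16 (SE, limma adjusted p = 0.871), or 0.08 relative to the median. The signs for Nfkb1 and Rela turned under several settings, such as -0.06 for Nfkb1 without mitochondrial genes and 0.07 for Rela with centred libraries, so no direction is given for either gene.

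Of the inhibitors, Nfkbia (ENSMUSG00000021025, chr12:55489410-55492647) encodes IkBa, which retains the dimers in the cytoplasm and is made again once they are active. Its TPM was 79.6, 117, 313, 137 and 337 in WT replicates 1 to 5 and 159.9, 85.1, 166, 94.1 and 172 in RhoB-/- replicates 1 to 5. WT replicates 3 and 5 stood above all other libraries, and the other WT libraries lay in or just below the RhoB-/- range. The highest WT value was 4.23 times the lowest, and within RhoB-/- libraries this ratio was 2.02. For Nfkbia the log2 fold change was -0.37 ± 0.38 (SE, limma adjusted p = 0.505), or -0.25 relative to the median, with a 95% confidence interval of -1.21 to 0.47.

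Nfkbiz (ENSMUSG00000035356, chr16:55811375-55838899) encodes IkBz, a nuclear IkB protein that acts with p50 on a subset of target genes. It was at 24.4, 28.5, 57.5, 30.1 and 64.5 TPM in WT replicates 1 to 5 and at 64.7, 41.9, 44.7, 46.3 and 64.1 TPM in RhoB-/- replicates 1 to 5. WT replicates 1, 2 and 4 lay below all RhoB-/- libraries, and WT replicates 3 and 5 lay inside their range. Nfkbiz had a log2 fold change of 0.43 ± 0.26 (SE, limma adjusted p = 0.255), or 0.56 relative to the median. On leaving out 1 library it ranged from 0.277 to 0.618. Without WT replicates 3 and 5 it was 0.876 and passed (limma adjusted p = 0.0112), but these were picked for their high values, which raises it by the choice alone.

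Bcl3 (ENSMUSG00000053175, chr7:19808462-19822770) encodes a further nuclear IkB protein, which binds p50 and p52 dimers. Its TPM was 31.4, 29.6, 44.7, 29.4 and 40.3 in WT replicates 1 to 5 and 66.7, 36.1, 44.9, 37.7 and 52.9 in RhoB-/- replicates 1 to 5. The highest value was in RhoB-/- replicate 1, and WT replicates 3 and 5 overlapped the lower RhoB-/- libraries. The log2 fold change was 0.42 ± 0.18 (SE, limma unadjusted p = 0.0398, adjusted p = 0.117), or 0.54 relative to the median, with a 95% confidence interval of 0.02 to 0.81. Without RhoB-/- replicate 1 it was 0.29 (limma adjusted p = 0.253, range over the alternatives 0.0576 to 0.253).

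In the feedback and target group, Tnfaip3 (ENSMUSG00000019850, chr10:19000910-19015657) encodes A20, a ubiquitin-editing enzyme that shuts off signalling upstream of the kinase complex. It was at 22.8, 22.8, 63.3, 23.7 and 67.1 TPM in WT replicates 1 to 5 and at 39.6, 22.8, 21.6, 25.4 and 34.4 TPM in RhoB-/- replicates 1 to 5. As with Nfkbia, WT replicates 3 and 5 were above all other libraries, and the remaining WT libraries were close to RhoB-/- replicates 2, 3 and 4. Tnfaip3 had a log2 fold change of -0.32 ± 0.33 (SE, limma adjusted p = 0.510), or -0.19 relative to the median, with a 95% confidence interval of -1.04 to 0.40.

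Birc3 (ENSMUSG00000032000, chr9:7848699-7873186) encodes cIAP2, a ubiquitin ligase of the TNF receptor complex. Its TPM was 21.3, 34.2, 27.3, 25.3 and 33.1 in WT replicates 1 to 5 and 21.5, 23.5, 21.2, 29.1 and 25.6 in RhoB-/- replicates 1 to 5. High values were in WT replicates 2 and 5, and the lowest values of the groups were close to each other. The log2 fold change was -0.20 ± 0.14 (SE, limma adjusted p = 0.318), or -0.08 relative to the median. Over the alternatives it ranged from -0.297, without WT replicate 1, to -0.0894, with centred libraries.

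Tnfaip2 (ENSMUSG00000021281, chr12:111442469-111455018), a TNF-induced gene, was at 0.24, 0.19, 0.21, 0.39 and 0.30 TPM in WT replicates 1 to 5 and at 0.76, 0.14, 0.41, 0.76 and 0.37 TPM in RhoB-/- replicates 1 to 5. Its lowest and highest values were in RhoB-/- libraries. It was tested alone by an exact two-sided permutation test, which can reach 0.00794 with these groups and gave p = 0.151 for a log2 fold change of 0.22. Without RhoB-/- replicate 2 the exact p was 0.0317 for 0.31, and over the alternatives with this test p ranged from 0.0317 to 0.321. In limma without the filter on low TPM its adjusted p was 0.330.

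**Figure D2:**
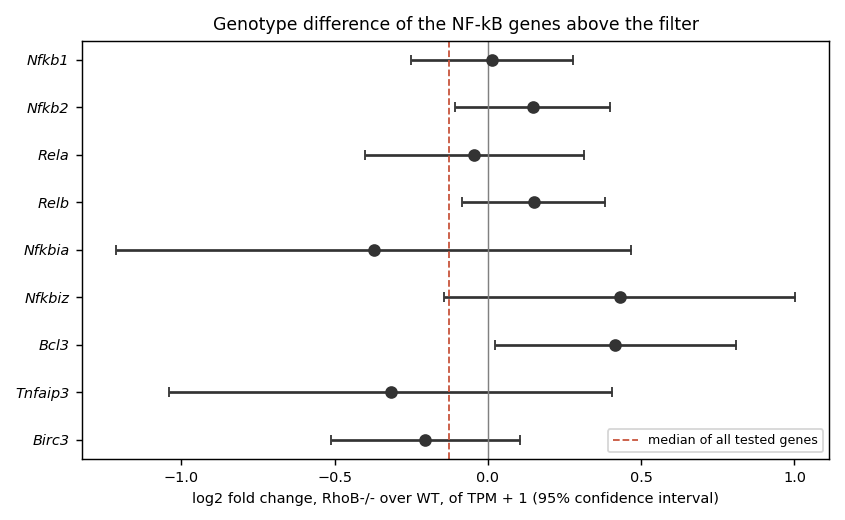
log2 fold change of TPM + 1 (x axis, RhoB-/- over WT) of the 9 NF-kB genes above the level of 1 TPM, with 95% confidence intervals from limma. The interval of Bcl3, 0.02 to 0.81, lies above 0, the other intervals include 0, and those of Nfkbia and Tnfaip3 are the widest; the dashed line is the median of all tested genes, -0.13.

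WT replicates 3 and 5 stood apart for part of the members. They were the 2 highest WT libraries for 6 of the 9 tested members (Nfkbia, Tnfaip3, Nfkbiz, Bcl3, Nfkb2 and Rela), and for 1066 of all 12870 tested genes. WT replicate 1 was the lowest WT library for 8 of the 9 members, with Bcl3 as the exception, and for 5639 of all 12870 tested genes. Mitochondrial genes took 26.5% of TPM in that library, the highest share of all libraries, and the part of this share in its low values was not tested. Without WT replicates 3 and 5, an alternative chosen after the values were seen, the log2 fold change was 0.26 for Nfkbia and 0.27 for Tnfaip3, against -0.37 and -0.32 with all libraries. Since these 2 libraries were picked for their high values, leaving them out raises the fold change of such genes by the choice alone.

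The same libraries were the 2 highest WT libraries for 4 of 7 tested chemokine genes among the known targets (Cxcl1, Cxcl2, Cxcl10 and Ccl20) and for Tnf. Tnf, the cytokine gene, was at 3.04, 2.84, 9.33, 3.32 and 12.0 TPM in WT replicates 1 to 5 and between 2.63 and 7.87 TPM in RhoB-/- libraries (limma adjusted p = 0.812). Cxcl2, a neutrophil chemokine, was at 3.10 and 3.82 TPM in WT replicates 3 and 5 and between 0.23 and 0.76 TPM in the other WT libraries. Immediate-early genes, which are induced quickly by stimuli and by the handling of cells, had WT replicates 3 and 5 as the 2 highest WT libraries in 12 of 13 cases, with Egr2 as the exception. Of the 13, 0 passed the limma test in either direction, and 0 were at an unadjusted p below 0.05. Atf3 was at 507 and 534 TPM in these 2 libraries and between 100.3 and 235 TPM in the other WT libraries. The part of cell handling or of a stimulus in the levels of Nfkbia and Tnfaip3 was not tested. Mitochondrial genes took 17.99% and 20.3% of TPM in WT replicates 3 and 5, inside the range of the other WT libraries, 17.5% to 26.5%.

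**Figure D3:**
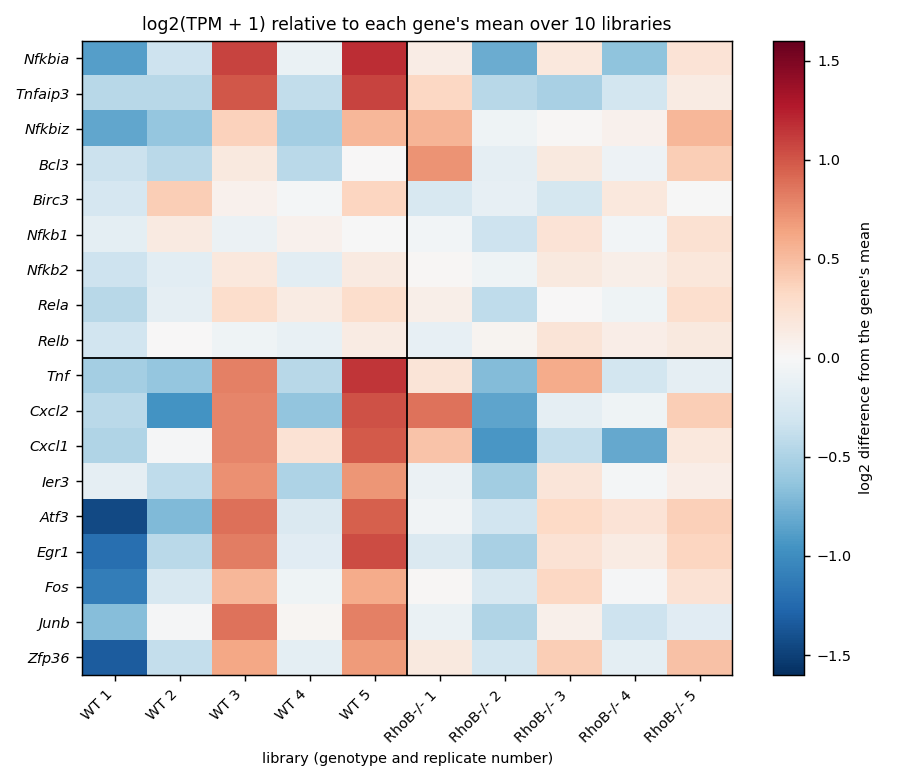
Difference of log2(TPM + 1) from the mean of each gene over 10 libraries (colour scale), for the 9 tested NF-kB genes (upper rows) and for TNF, chemokine and immediate-early genes (lower rows), by library on the x axis. WT replicates 3 and 5 are high for Nfkbia, Tnfaip3, Tnf, Atf3 and Egr1, and Nfkb1, Relb and Birc3 do not have this pattern.

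How far the members varied together was described by Pearson's r over 10 libraries after the mean of each genotype was subtracted. The points share their libraries, so values that move for a whole library move all genes in it. Of 36 pairs of tested members, 11 had r over 0.8. The share over pairs of all tested genes is not given, so this count is not read as particular to the members. Nfkbiz and Tnfaip3 were the closest pair (r = 0.983, n = 10), and Nfkbia followed Nfkb2 (0.927), Nfkbiz (0.926), Rela (0.883) and Tnfaip3 (0.866). WT replicates 3 and 5 were the 2 highest WT libraries for each of these genes. No r was computed without them, so how far r rests on these libraries is not known. The r of Nfkbia was 0.769 with Bcl3, 0.518 with Relb, 0.330 with Nfkb1 and 0.243 with Birc3, whose own highest r was with Relb (0.711). Among the 4 members with printed promoters, Bcl3 and Nfkb2 had the lowest r, 0.566.

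The 5 tested genes outside the members that were most like Nfkbia by this measure were Gadd45a (r = 0.990, n = 10), Tcim (0.971), Hbegf (0.968), Phlda1 (0.968) and Elf3 (0.966). Gadd45a, a stress-induced growth arrest gene, was at 77.3, 109, 218, 117 and 223 TPM in WT replicates 1 to 5 and between 92.7 and 158 TPM in RhoB-/- libraries. Hbegf, a ligand of the EGF receptor, was at 170 and 195 TPM in WT replicates 3 and 5 and between 39.6 and 89.8 TPM in the other WT libraries. In RhoB-/- libraries Hbegf was between 103 and 182 TPM, and its highest value, in RhoB-/- replicate 5, lay between those of WT replicates 3 and 5.

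The other genes of the pathway were counted in 6 lists, with 135 genes of which 108 were tested. By limma, 22 were higher and 9 were lower in RhoB-/- IECs, and 77 passed in neither direction. Here and in each list below, the share called higher is to be read beside 7.73% of all tested genes. The share called lower is to be read beside 13.5%. On leaving out 1 library these background shares ranged from 5.60% to 8.95% and from 6.66% to 22.3%, the last without RhoB-/- replicate 3. For 23 of the 108 genes WT and RhoB-/- values were fully apart, beside 14.5% of all tested genes, and their median log2 fold change was 0.05 against -0.13. Of the 31 calls 71.0% were higher, and this share was 81.6% with 40 higher and 9 lower when libraries were centred on their median deviation and 54.8% with 23 higher and 19 lower when mitochondrial genes were left out. The shares of all tested genes moved as well, to 15.6% higher and 12.8% lower with centred libraries and to 8.29% higher and 28.1% lower without mitochondrial genes, which took 19.4%, 22.4%, 10.3%, 17.1% and 12.1% of TPM in RhoB-/- replicates 1 to 5. Without RhoB-/- replicate 5 the counts were 16 higher and 7 lower, beside 719 higher and 1116 lower of all 12850 genes then tested. Those called lower numbered 5 without WT replicate 2, beside 7.41% of all genes, and 5 without WT replicate 5, beside 9.48%.

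**Figure D4:**
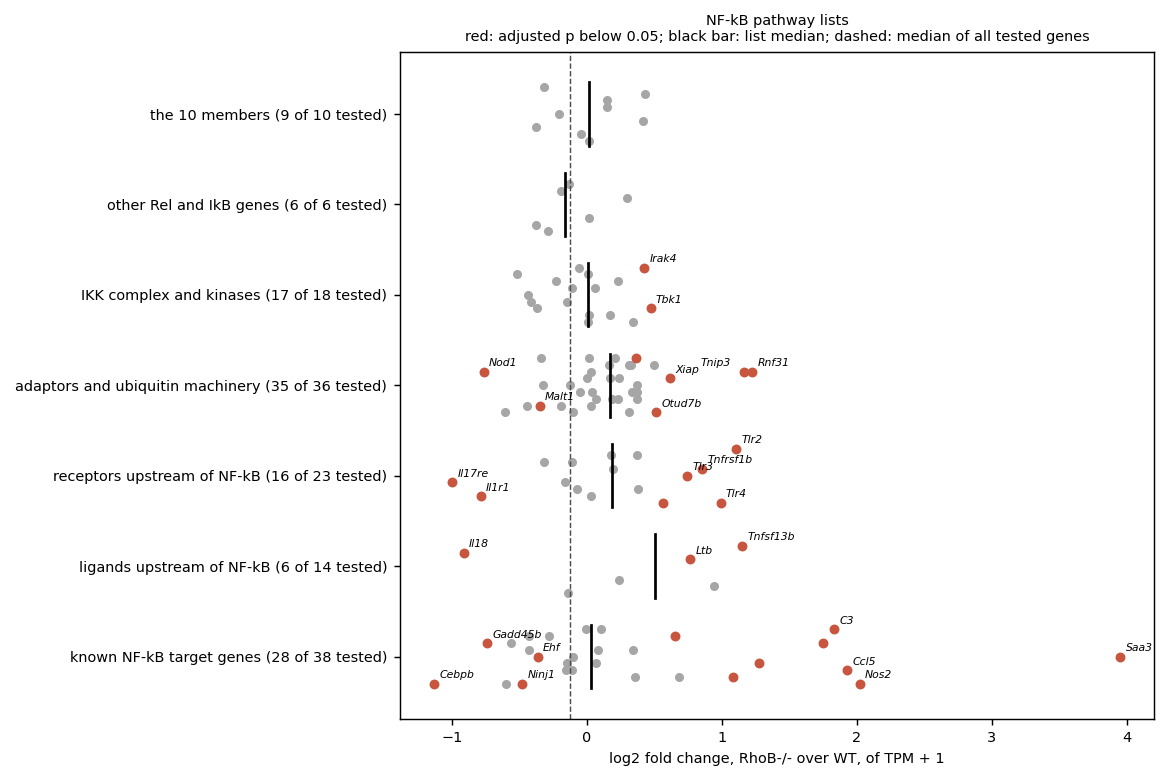
log2 fold change of TPM + 1 (x axis, RhoB-/- over WT) of the tested genes of the 10 members and of 6 other NF-kB lists, with 1 point per gene, red for a limma adjusted p below 0.05, a black bar at the median of the list and a dashed line at the median of all tested genes, -0.13. The members lie between -0.37 and 0.43, and Saa3 at 3.95 is the farthest gene.

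The 6 remaining Rel and IkB genes were all tested and 0 passed in either direction by limma, with a median log2 fold change of -0.16, and limma without the intensity trend also called 0. At an unadjusted p below 0.05 there was 1, which was lower, beside 24.9% of all tested genes lower by that rule. This was Nfkbid, a nuclear IkB gene, with a mean of 3.85 ± 0.768 TPM over WT and of 2.77 ± 0.734 TPM over RhoB-/- libraries (SD, n = 5 each). Its limma adjusted p was 0.136.

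In the list of the IkB kinase complex and its upstream kinases, 17 of 18 genes were tested, with a median log2 fold change of 0.01. By limma 2 were higher and 0 were lower, beside 7.73% and 13.5% of all tested genes. On leaving out 1 library the counts ranged from 0 to 2 in each direction, with 0 and 0 without RhoB-/- replicate 5. At an unadjusted p below 0.05 these counts were 3 and 3, beside 11.9% of all tested genes higher and 24.9% lower. limma without the intensity trend called 1 and 1, beside 7.5% and 13.7%. These counts are not read as particular to the kinases. The subunits of the complex, Chuk (IKKa), Ikbkb (IKKb) and Ikbkg (NEMO), named for their role, did not pass (limma adjusted p = 0.0843, 0.750 and 0.914). Tbk1, an IKK-related kinase that also activates interferon regulatory factors, averaged 25.0 ± 3.27 TPM over WT and 35.4 ± 7.75 TPM over RhoB-/- libraries (SD, n = 5 each), with a log2 fold change of 0.47 (limma adjusted p = 0.0400). Irak4, a kinase of the Toll-like and interleukin-1 receptors, had a log2 fold change of 0.42 (limma adjusted p = 0.0463). Both calls were close to the threshold. Tbk1 lost its call on leaving out any 1 library other than RhoB-/- replicate 2 or 3 (limma adjusted p = 0.0531 to 0.0777), and Irak4 on leaving out any 1 other than WT replicate 1 or RhoB-/- replicates 2 and 3 (0.0606 to 0.0995). Irak4 was also not called without mitochondrial genes (limma adjusted p = 0.0636) or without the intensity trend (0.0548).

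Of 36 genes for adaptors and ubiquitin machinery 35 were tested, and 5 were higher and 2 lower, with a median log2 fold change of 0.17. Leaving out 1 library gave 3 to 7 higher and 0 to 4 lower, and 3 and 1 without RhoB-/- replicate 5. Rnf31, the catalytic subunit HOIP of the linear ubiquitin ligase that recruits the kinase complex, was at 9.66, 12.4, 11.5, 14.4 and 11.4 TPM in WT replicates 1 to 5 and at 27.3, 23.2, 28.5, 30.6 and 35.9 TPM in RhoB-/- replicates 1 to 5. Each RhoB-/- value exceeded each WT value. This gave a log2 fold change of 1.22 ± 0.13 (SE, limma adjusted p = 8.48e-05). The partners of HOIP in that ligase, Rbck1 (HOIL-1) and Sharpin, named for their role, did not pass (limma adjusted p = 0.874 and 0.255).

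Tnip3, a gene for an A20-binding inhibitor protein, was at 10.6, 13.8, 12.9, 10.3 and 17.8 TPM in WT replicates 1 to 5 and at 48.9, 39.3, 18.2, 24.1 and 28.6 TPM in RhoB-/- replicates 1 to 5. The groups did not overlap, although RhoB-/- replicate 3 came close to WT replicate 5. Its log2 fold change was 1.16 ± 0.24 (SE, limma adjusted p = 0.00645), while that of Tnfaip3 itself did not pass. Xiap, an inhibitor of apoptosis, rose by 0.62 on the log2 scale (limma adjusted p = 0.0105), and by 0.54 without WT replicates 3 and 5, when it no longer passed (limma adjusted p = 0.0522, range over the alternatives 0.00304 to 0.0522).

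Otud7b, a deubiquitinase, had a log2 fold change of 0.52 (limma adjusted p = 0.0417), and was not called on leaving out any 1 library other than RhoB-/- replicates 2, 3 and 4 (0.0501 to 0.0859). The genes called lower were Nod1, a sensor of bacterial peptidoglycan, which fell by 0.76 (limma adjusted p = 0.0290), and Malt1, a paracaspase, which fell by 0.35 (limma adjusted p = 0.0352). Nod1 lost its call without any 1 library other than WT replicate 1 or RhoB-/- replicate 3 (limma adjusted p = 0.0504 to 0.0721). Malt1 lost it without WT replicate 2, 4 or 5 or RhoB-/- replicate 1, 2 or 4 (0.0528 to 0.0961), with quantile normalization (0.113), with centred libraries (0.0782) and at a mean TPM of at least 5 (0.0589).

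Among 23 receptor genes 16 were tested, with 5 higher, 2 lower and a median log2 fold change of 0.19. Tlr2, the receptor for bacterial lipoproteins, was at 3.94, 5.16, 8.43, 7.23 and 8.72 TPM in WT replicates 1 to 5 and at 13.7, 14.8, 15.1, 12.7 and 19.8 TPM in RhoB-/- replicates 1 to 5. All RhoB-/- values were above all WT values, although WT replicates 3 and 5 were again the 2 highest of their group. The log2 fold change was 1.11 ± 0.19 (SE, limma adjusted p = 0.00235). Tlr4, the receptor for lipopolysaccharide, rose by 0.99 (limma adjusted p = 0.00223), Tnfrsf1b, which encodes TNF receptor TNFR2, by 0.86 (0.00694) and Tlr3, a receptor for double-stranded RNA, by 0.74 (0.00328). Il17re, a subunit of the receptor for IL-17C, fell by 0.998 (limma adjusted p = 0.00891), and Il1r1, the interleukin-1 receptor gene, fell by 0.79 (0.0192).

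Of 14 ligand genes 6 were tested, 2 were higher and 1 was lower, with a median log2 fold change of 0.50. On leaving out 1 library 1 to 3 were higher and 1 was lower. The WT mean was below 1 TPM for 3 of the 6, Ltb, Il1b and Il17c, which reached the level for testing through the RhoB-/- libraries, so the filter itself favours a median above 0 here. Tnfsf13b, which encodes BAFF, a ligand of the noncanonical branch, was between 1.74 and 2.07 TPM in WT libraries and at 6.00, 3.29, 6.09, 5.71 and 6.39 TPM in RhoB-/- replicates 1 to 5. RhoB-/- replicate 2 was the low value of its group and still above all WT libraries. The log2 fold change was 1.15 ± 0.16 (SE, limma adjusted p = 0.000478). Ltb, which encodes lymphotoxin beta and is expressed by lymphocytes, had a log2 fold change of 0.77 (limma adjusted p = 0.0237), and lost its call without WT replicate 2 or 5 or RhoB-/- replicate 5 (0.0522 to 0.0608) and without the filter on low TPM (0.0508). Its mean was 0.968 TPM over WT and 2.27 TPM over RhoB-/- libraries. Il18, an epithelial cytokine, was at 51.7, 114, 100.3, 89.3 and 91.0 TPM in WT replicates 1 to 5 and between 38.1 and 53.6 TPM in RhoB-/- libraries, and fell by 0.91 (limma adjusted p = 0.00784). Only WT replicate 1 overlapped the RhoB-/- range.

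Among 38 known target genes 28 were tested, 8 were higher and 4 were lower (7 to 9 and 2 to 5 on leaving out 1 library), with a median log2 fold change of 0.03. Cxcl5 and Icam1, of which neither was called, had a WT mean below 1 TPM and reached the level for testing through the RhoB-/- libraries. Saa3, an acute-phase gene, was at 0.60, 1.17, 2.83, 2.98 and 1.64 TPM in WT replicates 1 to 5 and at 47.3, 21.7, 61.7, 18.1 and 93.7 TPM in RhoB-/- replicates 1 to 5. The groups were far apart, and the RhoB-/- libraries themselves varied widely. Its log2 fold change was 3.95 ± 0.42 (SE, limma adjusted p = 7.80e-05), and 3.65 without RhoB-/- replicate 5.

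Nos2, the gene of inducible nitric oxide synthase, was at 2.05, 0.18, 1.91, 0.43 and 1.97 TPM in WT replicates 1 to 5 and at 19.8, 5.09, 6.10, 3.31 and 11.7 TPM in RhoB-/- replicates 1 to 5. High and low libraries occurred in each group without overlap between them, and the log2 fold change was 2.02 ± 0.42 (SE, limma adjusted p = 0.00685). C3, the central complement gene, rose by 1.83 (limma adjusted p = 0.00581), and by 1.45 without RhoB-/- replicate 5, which held 56.9 TPM. Ccl5, a chemokine of lymphocytes and other cells, rose by 1.93 (limma adjusted p = 0.000213). Cebpb, a transcription factor, fell by 1.13 (limma adjusted p = 0.0148), and Gadd45b, an anti-apoptotic target, fell by 0.74 (0.00527).

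Ninj1, an adhesion and membrane rupture gene, fell by 0.48 (limma adjusted p = 0.0269), and Ehf, an epithelial transcription factor, by 0.36 (0.0221). Ninj1 lost its call without WT replicate 2 or 5 or RhoB-/- replicate 1, 2 or 5 (limma adjusted p = 0.0539 to 0.0681). Ehf lost it without WT replicate 2, 4 or 5 or RhoB-/- replicate 1 (0.0518 to 0.0585). Without the filter on low TPM, Ninj1 and, of the genes named above, Tbk1, Irak4, Otud7b, Nod1, Malt1 and Il1r1 also lost their calls (limma adjusted p = 0.0553 to 0.0935). So did Tbk1, Irak4, Otud7b, Malt1, Ninj1 and Ehf with the replicate number as a block (0.0598 to 0.0973), and Tbk1, Irak4, Otud7b, Nod1, Malt1, Ltb and Ninj1 without WT replicates 3 and 5 (0.0620 to 0.193). Of the 28 tested known targets, 8 passed as higher, Saa3, Nos2 and C3 among them, 4 passed as lower and 16 did not pass. The members Nfkbia, Tnfaip3 and Birc3 did not pass either. Whether these genes differ from each other in their change was not tested.

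Other gene groups were counted beside the pathway genes, and their counts called higher are to be read beside 7.73% of all tested genes. Interferon-stimulated genes were higher in 24 of 24 cases, with a median log2 fold change of 3.36, and their summed TPM was 173 to 257 in WT and 1636 to 3036 in RhoB-/- libraries. The WT mean of 4 of the 24, Ifit2, Mx2, Gbp3 and Ifi44, was below 1 TPM, so these reached the level for testing through the RhoB-/- libraries. Irf7 was the most abundant of the list and Isg15 had the largest change, 5.43. Some NF-kB targets such as Ccl5 are also induced by interferon, and the part of interferon in their level was not tested. Of 19 immediate-early and heat shock genes 0 were higher by limma, also at an unadjusted p below 0.05 and without the intensity trend. In that list 5 were lower, Hspa1a (-3.93), Hspa1b, Hsph1, Hsp90aa1 and Dnajb1, beside 13.5% of all tested genes called lower. Hspa8 was its most abundant gene. Summed TPM of that list was 5354 to 9528 in WT and 3928 to 6008 in RhoB-/- libraries.

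The label of epithelial cells was checked with markers. Calls of each marker list are to be read beside 7.73% of all tested genes called higher and 13.5% called lower. All 14 colon epithelium genes were tested, with Car1 as the most abundant and Epcam averaging 1157 ± 126 TPM over WT and 1424 ± 217 TPM over RhoB-/- libraries (SD, n = 5 each), and 5 of the 14 were higher and 0 lower by limma (7 and 0 at an unadjusted p below 0.05, 4 and 0 without the intensity trend, 3 to 7 and 0 on leaving out 1 library, 3 and 0 without RhoB-/- replicate 5), with Aqp8 (1.44) and Krt20 (1.17) changing most. Of 15 T cell and intraepithelial lymphocyte genes 12 were tested and 9 were higher, and without RhoB-/- replicate 5 the count was 8 of 11. The summed TPM of the list was 18.2 to 34.7 in WT and 71.8 to 84.2 in RhoB-/- libraries. The WT mean was below 1 TPM for 3 of the 12, Cd8a, Zap70 and Itgae, which reached the level for testing through the RhoB-/- libraries. For these genes the filter itself favours a higher call. Gzma was the most abundant and changed most (2.32), and Cd4 was listed at 0 in WT replicates 1 to 4. These sums were higher in RhoB-/- libraries, as were Ccl5 and Ltb, which lymphocytes express. The part of lymphocytes in the levels of Ccl5 and Ltb was not tested. In bulk RNA a different number of cells of a type and a different amount of RNA per cell cannot be told apart.

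Of 10 B cell and plasma cell genes 3 were tested and 1 was higher, Igha (1.19; the WT mean of Ighm, not called, was below 1 TPM), with a summed TPM of 3.75 to 15.3 in WT and 9.21 to 64.0 in RhoB-/- libraries, Igkc as the most abundant gene and Mzb1 listed at 0 in all WT libraries. Of 12 macrophage and dendritic cell genes 3 were tested and 1 was higher, Cd68 (1.19). The WT means of Cd68, 0.988 TPM, and of Lyz2 were below 1 TPM. Both reached the level for testing through the RhoB-/- libraries, so the filter itself favours a higher call here. Sums of that list were 4.03 to 10.8 TPM in WT and 5.37 to 19.2 TPM in RhoB-/- libraries, with C1qa as the most abundant. Of 8 neutrophil genes only Ly6g was tested, and it was higher (1.74) and made up most of sums of 11.9 to 33.8 TPM in WT and 54.0 to 108 TPM in RhoB-/- libraries. S100a8 and S100a9 were listed at 0 in all WT libraries, and Mpo and Camp in all 10 libraries. Of 8 fibroblast genes 4 were tested and 1 was higher, Dcn, the most abundant (the WT mean of Col6a1, not called, was below 1 TPM), with sums of 5.05 to 7.07 TPM and 7.53 to 41.5 TPM, the last in RhoB-/- replicate 5.

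Endothelial genes were all below the level for testing, with Pecam1 as the most abundant and sums of 1.45 to 2.19 TPM in WT and 1.58 to 3 TPM in RhoB-/- libraries. Of 6 smooth muscle genes 2 were tested and 0 passed, at an adjusted or an unadjusted p below 0.05 in limma or without its intensity trend, with Actg2 as the most abundant and sums of 1.41 to 6.46 TPM and 1.69 to 3.89 TPM. The level of the 10 NF-kB members summed to 264, 335, 613, 349 and 655 TPM in WT replicates 1 to 5 and to 455, 300.4, 415, 338 and 469.8 TPM in RhoB-/- replicates 1 to 5. WT replicates 3 and 5 were thus the highest libraries of the study for the summed members, and their lymphocyte sums, 18.2 and 33.6 TPM, were the lowest and the second highest of the WT libraries.

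**Figure D5:**
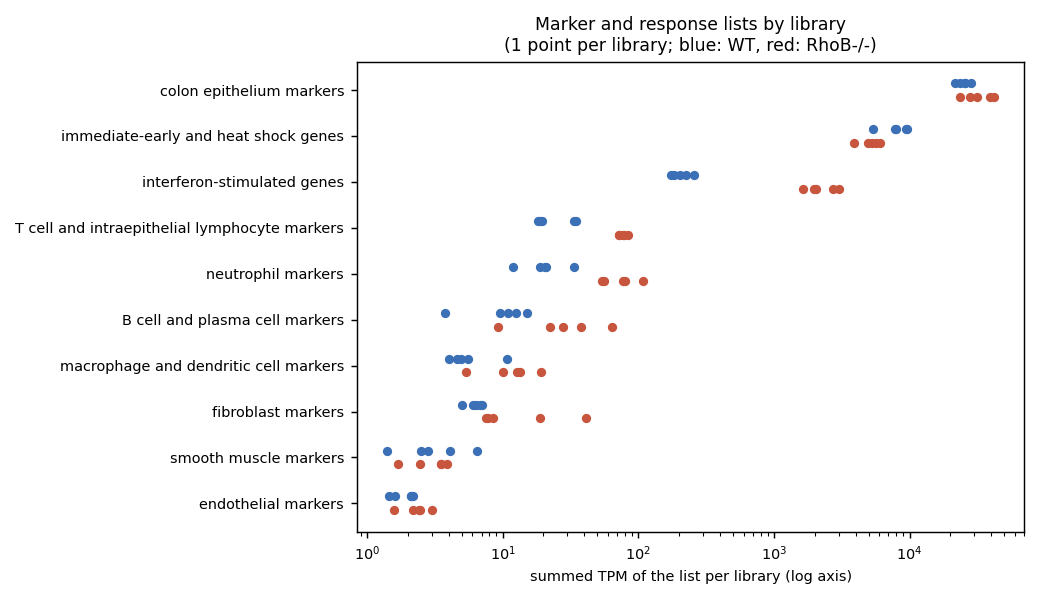
Summed TPM (x axis, log scale) of marker and response lists in each library, with 1 point per library, WT in blue and RhoB-/- in red. Sums of interferon-stimulated genes, at 173 to 257 TPM in WT and 1636 to 3036 TPM in RhoB-/- libraries, and of lymphocyte genes are higher in all RhoB-/- libraries, and epithelial genes have the highest sums.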

How the data were processed

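IEC libraries of 10 mice, 5 per genotype, were grouped and numbered by their sample labels. For the authors' values, SeqPrep and Sickle served for trimming, HISAT2 for alignment, StringTie for assembly and RSEM for quantification. The authors' processing notes name build GRCm38.p6 and edgeR, and versions were not given in the sources used here. The deposited values are TPM, rounded by the authors to 2 decimals. The listed values of a library summed to 971419 to 993229 TPM, and since TPM are relative to the rest of a library, abundant genes lower its other values.

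limma 3.58.1 in R 4.3.3 (lmFit, eBayes with intensity trend) was fitted to log2(TPM + 1) of the 12870 genes whose TPM averaged 1 or more, with Benjamini-Hochberg adjustment over all of them and calls at an adjusted p below 0.05. A count-based test was planned only in case the file held counts. Tnfaip2 was compared by an exact permutation test over 252 labelings. Python 3.11.15 with pandas 2.3.3, numpy 2.4.6, scipy 1.17.1 and matplotlib 3.10.9 was used for the rest. The fit was tested on simulated data. Alternatives changed the pseudocount, filter, normalization, variance model, call rule, replicate block and libraries.

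The members and lists were chosen with earlier results of these data known. Named genes were all members, Rhob, up to 4 called genes with the largest change in each direction per pathway list, the most abundant and most changed genes and those at 0 in other lists, and the 5 genes most like Nfkbia. Subunits named for their role, Nfkbid, and Tnf, Cxcl2 and Atf3 were chosen after their values were seen. Gene positions are from GENCODE M21 (GRCm38), and promoters from RefSeq.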

Additional observations from a re-analysis of the deposited data

Results flagged for a closer look

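Within each group of 5 libraries, a value was picked out when its gap to the nearest other library took up more than 0.71 of the range of the group. Chance picks out about 1 in 20 groups, or 3.6 of the 72 groups checked, and 3 were found. Rhob was at 110.87 TPM in RhoB-/- replicate 5, against 0.09 to 0.57 TPM in the other RhoB-/- libraries. C3 was at 56.9 TPM in the same library, against 10.8 to 23.6 TPM in the others. Tnfsf13b was at 3.29 TPM in RhoB-/- replicate 2, below the 5.71 to 6.39 TPM of the others. No value of the 10 NF-kB members was picked out in this way. The rule cannot pick out libraries that are high together, as WT replicates 3 and 5 were for Nfkbia and Tnfaip3. It therefore says nothing about that pair.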

How the results depend on the processing

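The count of NF-kB members called higher stayed at 0 in 18 of 20 alternatives. It was 1 with libraries centred on their median deviation (Relb) and 1 without WT replicates 3 and 5 (Nfkbiz), the latter chosen for the high values of these libraries, which raises this fold change by the choice alone, and leaving out 1 library in turn gave 0. The count called lower was 0 in all 20. Other pathway genes called higher numbered 22, 40 with centred libraries, and 16 to 27 on leaving out 1 library. Those called lower numbered 9, 5 without a filter, 5 at a mean TPM of at least 5, 19 without mitochondrial genes, and 5 to 12 on leaving out 1 library. Over all genes the median log2 fold change was -0.20 without mitochondrial genes and -0.01 with centred libraries. The sign turned for Nfkb1 (0.01) to -0.0607 without mitochondrial genes, to -0.0139 without WT replicates 3 and 5 and within -0.0442 to 0.0987 on leaving out 1 library. Rela (-0.04) turned to 0.0711 with centred libraries, to 0.13 without WT replicates 3 and 5 and within -0.16 to 0.0519 on leaving out 1 library. Nfkbia turned to 0.26 and Tnfaip3 to 0.27 without WT replicates 3 and 5, and on leaving out 1 library they ranged from -0.64 to -0.12 and from -0.47 to -0.09. The cause was not tested. Of 25 named pathway genes 15 kept their call in every alternative run for them. Il17re and Tnfsf13b, which belong to these 15, were not tested at a mean TPM of at least 5. The labels give replicate numbers and no pairing of the mice. The deviations of same-numbered libraries correlated at r = -0.0874 to 0.072, and not every library correlated best with its own number. These values cannot show whether mice were paired. With the number as a replicate block the members called were 0 and 0, other pathway genes 18 and 6, and all genes 836 higher and 1059 lower in place of 995 and 1734. Tnfaip2, tested alone, was recomputed under 13 alternatives. Depth is unknown for TPM.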

Other observations

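Several inflammatory genes of the pathway lists were near or below the level for testing. Il1b, the interleukin-1 beta gene, was at 0.11, 0.11, 0.39, 0.25 and 1 TPM in WT replicates 1 to 5 and at 4.67, 0.15, 0.84, 2.57 and 1.63 TPM in RhoB-/- replicates 1 to 5, with overlap between the groups (limma adjusted p = 0.0948). Cxcl5, a neutrophil chemokine, had its highest value, 5.28 TPM, in RhoB-/- replicate 1, the library that was also highest for Bcl3, Nfkbiz and Nos2. Il6 reached at most 0.46 TPM, in WT replicate 5, and Lcn2 0.46 TPM, in RhoB-/- replicates 1 and 5. Bcl2a1b, an anti-apoptotic target below the level for testing, was between 0.10 and 0.21 TPM in WT and between 0.53 and 1.23 TPM in RhoB-/- libraries without overlap. These genes were named after their values were seen.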
